A study of Mus musculus with 4 samples.

Results

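The Hox genes of mouse embryonic stem cells were followed on expression arrays of wild-type cells (WT) and of cells lacking Suz12 (Suz12KO). The members were all probe sets whose single gene symbol in the platform annotation is Hoxa, Hoxb, Hoxc or Hoxd followed by a number, with no filter on signal. This rule gave 48 probe sets for 33 genes among the 45101 probe sets of the array: 16 for 9 genes of HoxA, 11 for 9 genes of HoxB, 11 for 7 genes of HoxC and 10 for 8 genes of HoxD. There were 2 arrays per genotype, of pluripotent embryonic stem cells, with no treatment named in the labels. Total RNA came from 3 clones of each genotype, mixed in equal amounts, and how Suz12 was inactivated is not stated in the labels. They do not say either whether both arrays of a genotype were made from different RNA, so each p-value below measures spread between arrays, which may be technical.

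Hox genes encode homeodomain transcription factors that give cells their position along the head-to-tail axis. They lie in clusters named HoxA to HoxD, and genes with low paralog numbers at one end of a cluster are used earlier and further forward in the embryo than those with high numbers at the other end. In embryonic stem cells the clusters are silent and carry methylation of lysine 27 of histone H3, which is laid down by Polycomb repressive complex 2 (PRC2). Suz12 is a core subunit of that complex, and the design asks how transcript levels differ when it is missing.

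The stretches of DNA just before the start sites of 4 Hox genes are given as examples of sequence in the clusters, with 1 gene taken from each cluster. They were copied from the RefSeq table (GRCm38.p6), 250 bases before the start site, written 5′ to 3′ on the strand of the gene, and capitals mark each CG dinucleotide.

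Hoxa5, chr6:52204588-52204837, minus strand: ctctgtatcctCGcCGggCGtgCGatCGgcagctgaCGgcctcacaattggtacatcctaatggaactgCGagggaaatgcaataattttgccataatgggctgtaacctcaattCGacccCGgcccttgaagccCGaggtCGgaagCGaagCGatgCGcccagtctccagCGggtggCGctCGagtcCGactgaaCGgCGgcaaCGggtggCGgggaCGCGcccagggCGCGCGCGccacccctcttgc

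Hoxb4, chr11:96318017-96318266, plus strand: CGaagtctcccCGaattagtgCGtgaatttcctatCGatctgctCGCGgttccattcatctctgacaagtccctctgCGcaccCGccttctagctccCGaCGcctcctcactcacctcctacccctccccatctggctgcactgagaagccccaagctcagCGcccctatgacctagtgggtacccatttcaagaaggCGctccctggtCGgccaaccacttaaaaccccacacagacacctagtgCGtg

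Hoxc4, chr15:103034145-103034394, plus strand: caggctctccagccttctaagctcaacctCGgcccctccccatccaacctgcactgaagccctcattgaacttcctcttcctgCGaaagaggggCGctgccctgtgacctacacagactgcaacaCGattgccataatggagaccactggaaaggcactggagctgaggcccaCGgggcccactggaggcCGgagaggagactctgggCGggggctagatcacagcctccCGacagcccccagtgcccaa

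Hoxd8, chr2:74704365-74704614, plus strand: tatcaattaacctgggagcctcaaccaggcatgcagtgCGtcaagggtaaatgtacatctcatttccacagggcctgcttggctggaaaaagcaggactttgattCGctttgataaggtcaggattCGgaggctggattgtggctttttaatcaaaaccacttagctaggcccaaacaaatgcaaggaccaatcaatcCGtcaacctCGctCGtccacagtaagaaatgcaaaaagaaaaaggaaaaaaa

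The Hoxa5 stretch holds 28 CG dinucleotides, that of Hoxb4 14, that of Hoxc4 8 and that of Hoxd8 6. The table had such a stretch for 19 of the 33 genes, 21 in all because Hoxa10 and Hoxd11 have 2 each. All were of HoxA or HoxD except those of Hoxb1, Hoxb4 and Hoxc4, so HoxB and HoxC are hardly covered. The median of the 21 was 13 CG dinucleotides and 59.2% G or C, against 6 and 52.4% over all 32851 stretches of the table. The count ran from 2 in one stretch of Hoxd11 to 35 in that of Hoxa13, so the Hox stretches were not alike. At least 1 CG stood in all 21 and in 92.1% of all stretches. The letters TATAAA, searched on both strands, stood in 9.52% of the Hox stretches and in 12.4% of all. The letters TTTATG, which the Cdx factors upstream of Hox genes are known to bind, stood in 14.3% and 10.8%. A match of letters is a description and no measure of binding.

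The level that background alone can reach was read from 27 probe sets for RNA of bacterial genes (Dap, Lys, Phe, Thr and Trpn), called spikes here. Pairs of values are given as replicate 1, then replicate 2. The highest spike read 141 and 191 on the WT arrays and 195 and 174 on the Suz12KO arrays, and their medians were 45.3 and 22.8 in WT against 39.7 and 67.4 in Suz12KO. A single spike set the level of WT replicate 2, where the next one read 74.6. The median signal of all probe sets was also somewhat higher in Suz12KO (202 and 191) than in WT (175 and 171). Suz12 fell at an adjusted p under 0.05 on 2 of its 6 probe sets, of which 1427253_s_at read 1024 and 1096 in WT against 274 and 301 in Suz12KO, a log2 fold change of -1.83 (SE 0.21, limma adjusted p = 0.00227). The other Suz12 probe sets did not pass the test but also read lower in both Suz12KO arrays, except 1420020_at (55.8 and 56.1 in WT, 51.1 and 56.1 in Suz12KO). Cell type markers were counted and summed by the brightest probe set of each gene. All 7 embryonic stem cell markers were above the highest spike in all 4 arrays, and 6 of them rose in Suz12KO, with a summed signal of 64154 and 63801 in WT against 112028 and 115401. Of 14 fibroblast markers, 5 were above it in all 4 arrays and 5 fell in Suz12KO. Their summed signal was 14116 and 14796 in WT against 4924 and 3905 in Suz12KO, and Lum, Dcn, Pdgfrb and Postn did not exceed the spikes in any array. In WT the largest parts of the sum came from Thbs1 (6558 and 6830) and Col1a1 (2859 and 2599). Thy1, Prrx1, Twist1, Col6a1, Dcn and Pdgfrb overlapped between genotypes on the probe sets summed, and Lum was higher in both Suz12KO arrays. By limma 0 of 6 markers of primitive endoderm, 0 of 5 neural and 0 of 5 mesoderm markers passed the test. Their summed signals were 1834 and 1935 in WT against 2598 and 1977 in Suz12KO for primitive endoderm, 1166 and 1490 against 1122 and 1294 for neural markers, and 1587 and 1608 against 2270 and 2076 for mesoderm. For primitive endoderm and for mesoderm both Suz12KO sums were higher. Among the mesoderm markers, Hand1 read 503 and 387 in WT against 1108 and 605 in Suz12KO on 1417525_at. Its other probe set and Eomes on 1435172_at were also higher in both Suz12KO arrays. Mesp1, Kdr, Mixl1 and the other Eomes probe set overlapped. Gata4, a primitive endoderm gene singled out after its values were seen, was at least 2.14-fold higher in Suz12KO on 1418863_at (limma adjusted p = 0.0673), and its other probe set overlapped between genotypes. Sox7 and Sox17 also read higher in both Suz12KO arrays on each probe set, Sox7 at least 1.51-fold on 1432495_at. Dab2 read lower in both on 1423805_at and 1430604_a_at. Its other probe sets and all those of Gata6 and Foxa2 overlapped. Fibroblasts serve as feeder cells in some stem cell cultures and use many Hox genes, and in such bulk RNA fewer cells of a type and less RNA per cell cannot be told apart. Whether these markers and the Hox values are linked was not tested.

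Of the 48 Hox probe sets, 0 rose and 0 fell in Suz12KO by limma at an adjusted p under 0.05. Among all 45037 probe sets fitted, 1.25% rose and 1.79% fell (565 and 807 probe sets, or 252 and 1226 with each array centred on its median). Of the 48 Hox probe sets 38 were dim: among the 23786 probe sets whose mean over the 4 arrays did not exceed the highest spike of any array (195), 0.0126% rose and 0.0% fell. A probe set that rises far leaves this dim class, since the mean includes the Suz12KO arrays, so few calls in it are built in. At an unadjusted p under 0.05 there were 3 Hox probe sets (6.25%), for Hoxa4, Hoxa5 and Hoxc8. That share was 14.2% over all probe sets. All 3 were dim, 7.89% of the dim Hox probe sets, against 5.83% of all dim ones. The smallest adjusted p of a Hox probe set was 0.148. With simulated data of this design, the same fit found 6% of 2-fold and 19% of 4-fold changes, with 100 of each placed at random among 45037 probe sets. That simulation gave 30 calls, far fewer than the data, and its changes lay at all signal levels, while most Hox probe sets were dim. These shares therefore do not give the rate for Hox genes, and how many changes of that size were missed among them is not known.

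Signal above the highest spike was the exception. In no array was it reached by 25 of the 48 probe sets (52.1%), against 32.8% of all probe sets. All 25 were among the 38 dim Hox probe sets, since a probe set that passes the highest spike in no array is dim by definition. They made up 65.8% of these 38, and the share among all dim probe sets was 62.1%. In all 4 arrays it was reached by 3 probe sets (6.25%), against 38.2% of all probe sets. These were the x_at probe set of Hoxa5, 1 of Hoxa11 and 1 of Hoxc6. Counted by array, 16 and 6 Hox probe sets lay above the highest spike in WT against 11 and 17 in Suz12KO. The WT arrays thus differed from each other by more than the means of the genotypes did. With the second highest spike as the level, those counts were 18 and 27 in WT against 12 and 18 in Suz12KO, so the order of the arrays depends on 1 spike in WT replicate 2. No probe set of 16 genes passed the highest spike in any array: Hoxa2, Hoxa4, Hoxa7, Hoxb2, Hoxb5, Hoxb6, Hoxb13, Hoxc4, Hoxc8, Hoxc9, Hoxc10, Hoxc13, Hoxd9, Hoxd10, Hoxd11 and Hoxd12.

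**Figure D1:**
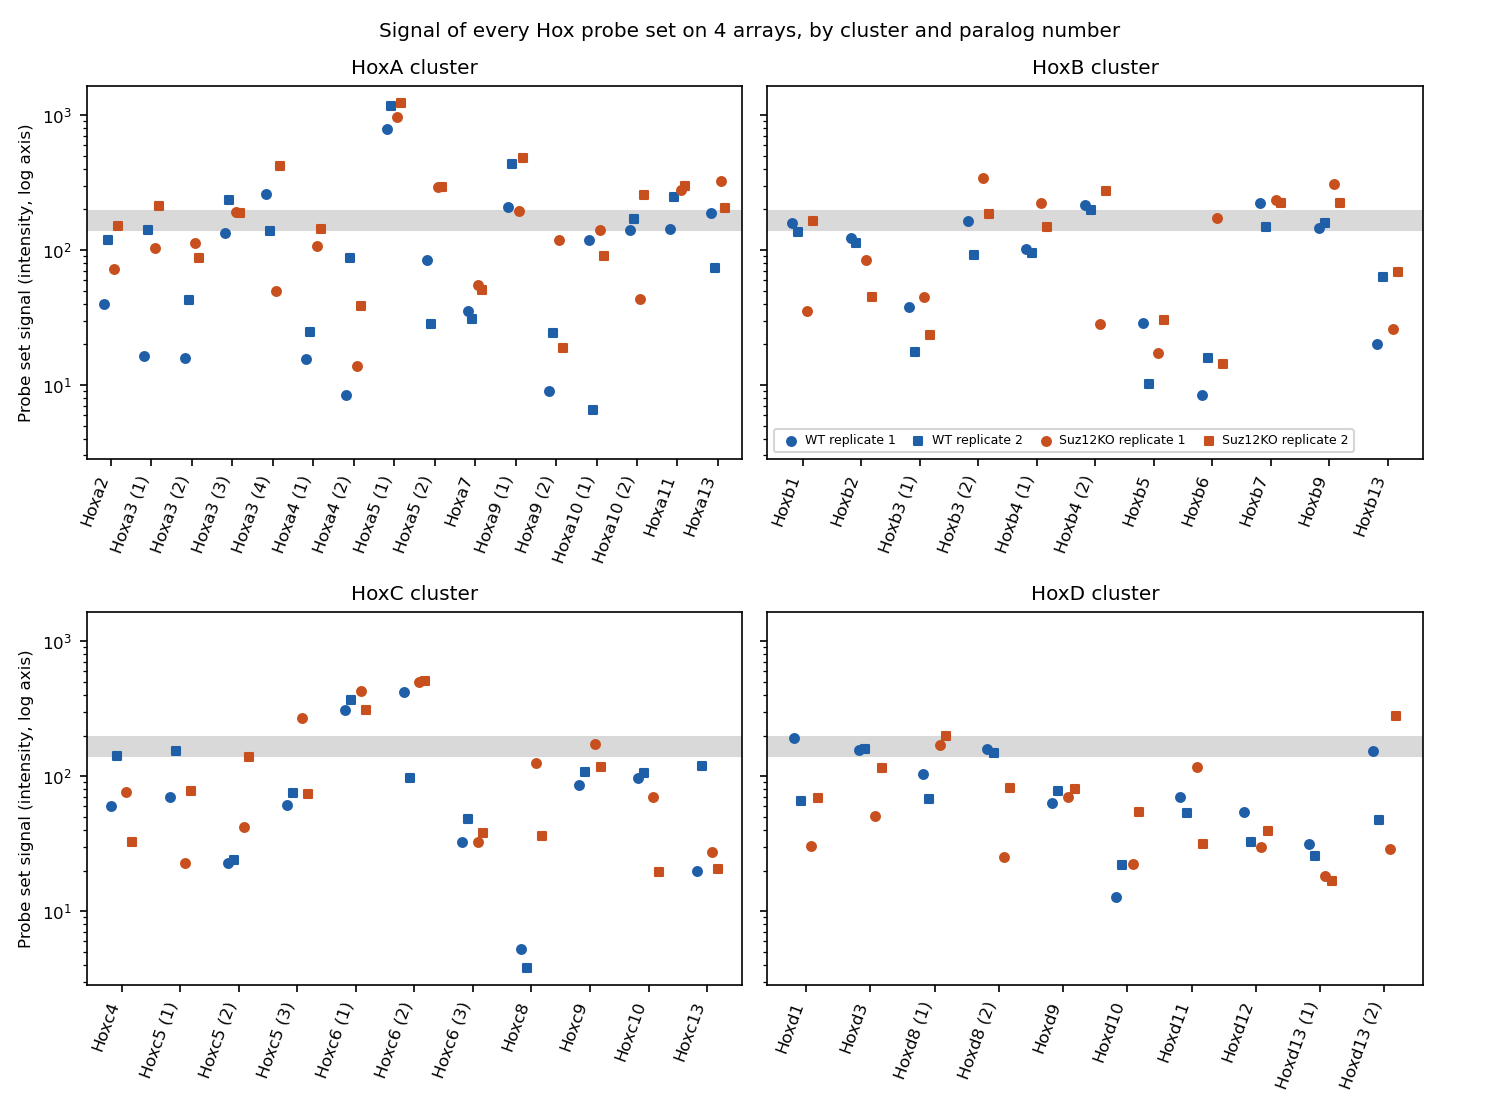
Signal (intensity, log axis) of each of the 48 Hox probe sets in the 4 arrays, by cluster and paralog number, with blue for WT, orange for Suz12KO, circles for replicate 1 and squares for replicate 2. Numbers in brackets tell apart the probe sets of a gene in order of their identifiers, and the grey band spans the highest spike of the 4 arrays (141 to 195). Most points lie in or below the band, and only Hoxa5 (1) lies far above it in every array.

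HoxA, the cluster with the most probe sets, also had the largest share with a log2 fold change above 0 (81.2%, against 72.7% in HoxB). In 13 of 16 the log2 fold change was above 0, against 55.4% of all probe sets and 58.7% of the dim ones. In 6 of 16 (37.5%) both Suz12KO arrays lay above both WT arrays, which was so for 25.7% of all and 24.0% of dim probe sets. That share was nearly the same in HoxC (36.4%). In 0 of 16 both lay below, against 18.7% of all and 12.8% of dim probe sets.

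Hoxa5, which patterns the neck vertebrae and the lung, was the gene with the clearest signal in this cluster, and its probe sets differed. The probe set 1448926_at read 84.4 and 28.3 in WT against 293 and 295 in Suz12KO. Both WT readings lay within the range of the spikes and both Suz12KO readings above it, a pattern found in 1 of the 48 Hox probe sets, in 1.83% of all probe sets and in 2.53% of the dim ones. The Hox count was 6 without WT replicate 1, 4 without Suz12KO replicate 1, 3 without Suz12KO replicate 2 and 3 with the highest spike of any array as the level. Measured against the highest spike, the Suz12KO signal was at least 1.79-fold higher. The log2 fold change was 2.21 (SE 0.70) on the log2(signal + 16) scale and did not pass the test (limma adjusted p = 0.175). Leaving out 1 array at a time gave 1.63 to 2.80. The x_at probe set of Hoxa5 (1443803_x_at), a type that can also detect related transcripts and for which the annotation gives no accession, read 786 and 1172 in WT against 969 and 1229 in Suz12KO. Here the groups overlapped, and the log2 fold change was 0.18 (SE 0.21, adjusted p = 0.763). It was -0.10 without WT replicate 1.

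Hoxa11 and Hoxa13, at the end of the cluster that serves the limbs and the hind part of the body, read higher in both Suz12KO arrays. Hoxa11 read 142 and 248 in WT against 279 and 297 in Suz12KO, above the spikes in each array. In WT replicate 1 Hoxa11 only just passed the highest spike of 141. Its log2 fold change of 0.57 (SE 0.45, limma adjusted p = 0.627) was small beside the gap between the WT arrays, and it became 0.94 when WT replicate 2 was left out and 0.20 when replicate 1 was. Hoxa13 read 187 and 74.0 in WT against 324 and 206 in Suz12KO, so WT replicate 2 alone lay within the range of the spikes. The log2 fold change of Hoxa13 was 1.02 (SE 0.61, adjusted p = 0.512). Leaving out WT replicate 2 gave 0.43 and leaving out replicate 1 gave 1.61, so its size varied with the WT array used. Hoxa9, a gene of blood progenitors, showed no separation of the groups. Its probe set 1421579_at read 207 and 436 in WT against 194 and 480 in Suz12KO, with replicate 2 over 2-fold above replicate 1 in each genotype, and a log2 fold change of 0.02 (SE 0.51, adjusted p = 0.991). It was -0.073 under quantile normalization and -0.14 with each array centred on its median.

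The remaining HoxA probe sets stayed near background in most arrays. Hoxa4, a gene of the neck region, read 15.5 and 24.6 in WT against 107 and 143 in Suz12KO on its x_at probe set. The groups did not overlap, but all 4 values lay under the highest spike, so no fold is given (limma adjusted p = 0.239). The other Hoxa4 probe set read 8.38 and 87.5 in WT against 13.7 and 38.6 in Suz12KO and gave no such gap. Hoxa3, needed for the thymus and parathyroid glands, has 4 probe sets. Of these, 1429398_at read 15.9 and 42.9 in WT against 113 and 87.4 in Suz12KO, all under the spikes, and 1427433_s_at read 16.5 and 140 against 103 and 210. The probe set 1452421_at of Hoxa3 read 258 and 137 in WT against 49.4 and 420 in Suz12KO, so its Suz12KO arrays enclosed the WT ones. The fourth, 1431392_at, read 134 and 233 against 191 and 189. Hoxa10, known from the uterus and the hind limb, also had a probe set that scattered: 1446408_at read 141 and 169 in WT against 43.5 and 257 in Suz12KO, and 1431475_a_at read 119 and 6.57 against 140 and 89.6. Hoxa7 read 35.2 and 30.8 against 54.6 and 50.2, a small gap without overlap at a signal well under the spikes. Hoxa2, which patterns the hindbrain and the second pharyngeal arch, read 39.8 and 119 against 72.4 and 149, and the second Hoxa9 probe set read 9.07 and 24.3 against 118 and 18.6. Both of these overlapped between genotypes.

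In HoxB 8 of 11 probe sets had a log2 fold change above 0, and in 3 (27.3%) both Suz12KO arrays were the higher ones, close to the 25.7% of all and 24.0% of dim probe sets. No HoxB probe set was above the highest spike in all 4 arrays. Hoxb9, active in the thoracic region, read 144 and 158 in WT against 310 and 222 in Suz12KO. Both Suz12KO arrays were higher, and the log2 fold change was 0.73 (SE 0.48, limma adjusted p = 0.556). Hoxb3, a hindbrain gene, read 165 and 91.4 in WT against 343 and 186 in Suz12KO on 1456229_at, again without overlap, with a log2 fold change of 0.95 (SE 0.58, adjusted p = 0.523). It ran from 0.53 without Suz12KO replicate 1 to 1.37 without Suz12KO replicate 2. Its other probe set read 37.7 and 17.5 against 45.1 and 23.4, well under the spikes. Hoxb7 read 224 and 149 in WT against 234 and 221 in Suz12KO. WT replicate 1 was as high as the Suz12KO arrays, so that the log2 fold change of 0.29 (SE 0.48, adjusted p = 0.839) rested on WT replicate 2 and was 0.02 without it.

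Hoxb4, a gene known for its effect on blood stem cells, gave opposite directions on 2 probe sets that carry the same accession in the annotation. The first, 1451761_at, read 102 and 94.2 in WT against 221 and 148 in Suz12KO, so that both Suz12KO arrays were higher. The other, 1460379_at, read 215 and 199 in WT against 28.4 and 271 in Suz12KO. The WT arrays agreed and the Suz12KO arrays lay 9.55-fold apart, which gave a log2 fold change of -0.98 (SE 0.89, limma adjusted p = 0.685) and of 0.37 without Suz12KO replicate 1. Among the dim members, Hoxb2 was the HoxB gene with both Suz12KO arrays below WT (124 and 112 in WT, 84.2 and 44.8 in Suz12KO). Hoxb1, the marker gene of the fourth hindbrain segment, read 158 and 137 in WT against 35.5 and 164 in Suz12KO. Hoxb6 read 8.48 and 15.8 against 173 and 14.4, so only Suz12KO replicate 1 stood out. Hoxb5 read 28.7 and 10.2 against 17.2 and 30.2, and Hoxb13, a gene of the prostate and tail end, 20.1 and 62.5 against 25.8 and 69.1. Neither separated the genotypes.

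In HoxC 6 of 11 probe sets had a log2 fold change above 0. In 4 both Suz12KO arrays were above both WT arrays and in 1, for Hoxc10, both were below, against 25.7% above and 18.7% below over all probe sets and 24.0% and 12.8% over the dim ones. Signal above the spikes came mainly from Hoxc6, a thoracic gene. Its probe set 1427361_at read 312 and 367 in WT against 429 and 312 in Suz12KO, above the spikes in each array but overlapping. The log2 fold change was 0.11 (SE 0.31, limma adjusted p = 0.923) and turned to -0.060 with each array centred on its median, -0.0047 without WT replicate 1 and -0.11 without Suz12KO replicate 1. The x_at probe set of Hoxc6 (1427362_x_at) read 419 and 96.4 in WT against 503 and 505 in Suz12KO. Both Suz12KO arrays were higher and WT replicate 2 was the low one. The log2 fold change was 1.24 (SE 0.57, adjusted p = 0.379), or 0.26 when WT replicate 2 was left out and 2.21 when replicate 1 was. The third probe set of Hoxc6 read 32.6 and 48.0 in WT against 32.6 and 38.0 in Suz12KO, under the spikes. None of the 3 has an accession in the annotation.

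The smallest adjusted p of any Hox probe set belonged to Hoxc8, a gene of the thoracic spinal cord and ribs. It read 5.29 and 3.80 in WT against 125 and 35.9 in Suz12KO (limma adjusted p = 0.148). The groups did not overlap, but all 4 values lay under the highest spike, so the fitted change measures readings within the range of background and no fold is given. Hoxc5 scattered over its 3 probe sets. It read 22.7 and 24.0 in WT against 42.1 and 138 in Suz12KO on 1450832_at. On 1456301_at Hoxc5 read 61.7 and 74.6 against 273 and 73.7, and on 1439885_at 70.6 and 154 against 22.8 and 78.4. Only the first of these separated the genotypes. Hoxc9, which sets the identity of thoracic motor neurons, read 86.2 and 107 in WT against 174 and 118 in Suz12KO. Hoxc10, its counterpart in the lumbar region, read the other way, 97.5 and 106 in WT against 70.2 and 19.6 in Suz12KO. Both of these separated the genotypes under the highest spike. Hoxc4 read 60.4 and 142 against 76.7 and 32.8, and Hoxc13, a gene of hair and nails, 19.8 and 119 against 27.6 and 20.6, with overlap in both.

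HoxD probe sets split evenly in direction. Of the 10 probe sets 5 had a log2 fold change above 0, in 3 both Suz12KO arrays lay below both WT arrays and in 2 both lay above. Among all probe sets 18.7% lay below in this way and 25.7% above, and among the dim ones 12.8% and 24.0%. None was above the highest spike in both arrays of a genotype. The 3 lower ones were for Hoxd3 (157 and 159 in WT, 50.5 and 115 in Suz12KO), for Hoxd8 on 1433638_s_at (159 and 150 in WT, 25.4 and 82.6 in Suz12KO) and for Hoxd13, a gene of the digits, on 1422239_at (31.5 and 25.5 in WT, 18.3 and 16.8 in Suz12KO). In each of these the WT arrays agreed closely. With the second highest spike of each array as the level, those of Hoxd3 and Hoxd8 lay above it in both WT arrays and in no Suz12KO array. The other Hoxd8 probe set, 1431099_at, read 104 and 67.5 in WT against 172 and 197 in Suz12KO and so read the other way. Hoxd10 was the other gene with higher Suz12KO arrays, at 12.7 and 22.1 in WT against 22.2 and 54.2 in Suz12KO, far under the spikes. Hoxd1, the gene at the front end of the cluster, read 192 and 65.4 in WT against 30.5 and 68.7 in Suz12KO. The second probe set of Hoxd13 read 155 and 47.1 against 28.7 and 279, with the Suz12KO arrays 9.73-fold apart. Hoxd9 (63.9 and 78.0 in WT, 70.4 and 80.1 in Suz12KO), Hoxd11 (70.2 and 53.0, then 118 and 31.5) and Hoxd12 (54.5 and 32.5, then 30.1 and 39.3) overlapped between genotypes.

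**Figure D2:**
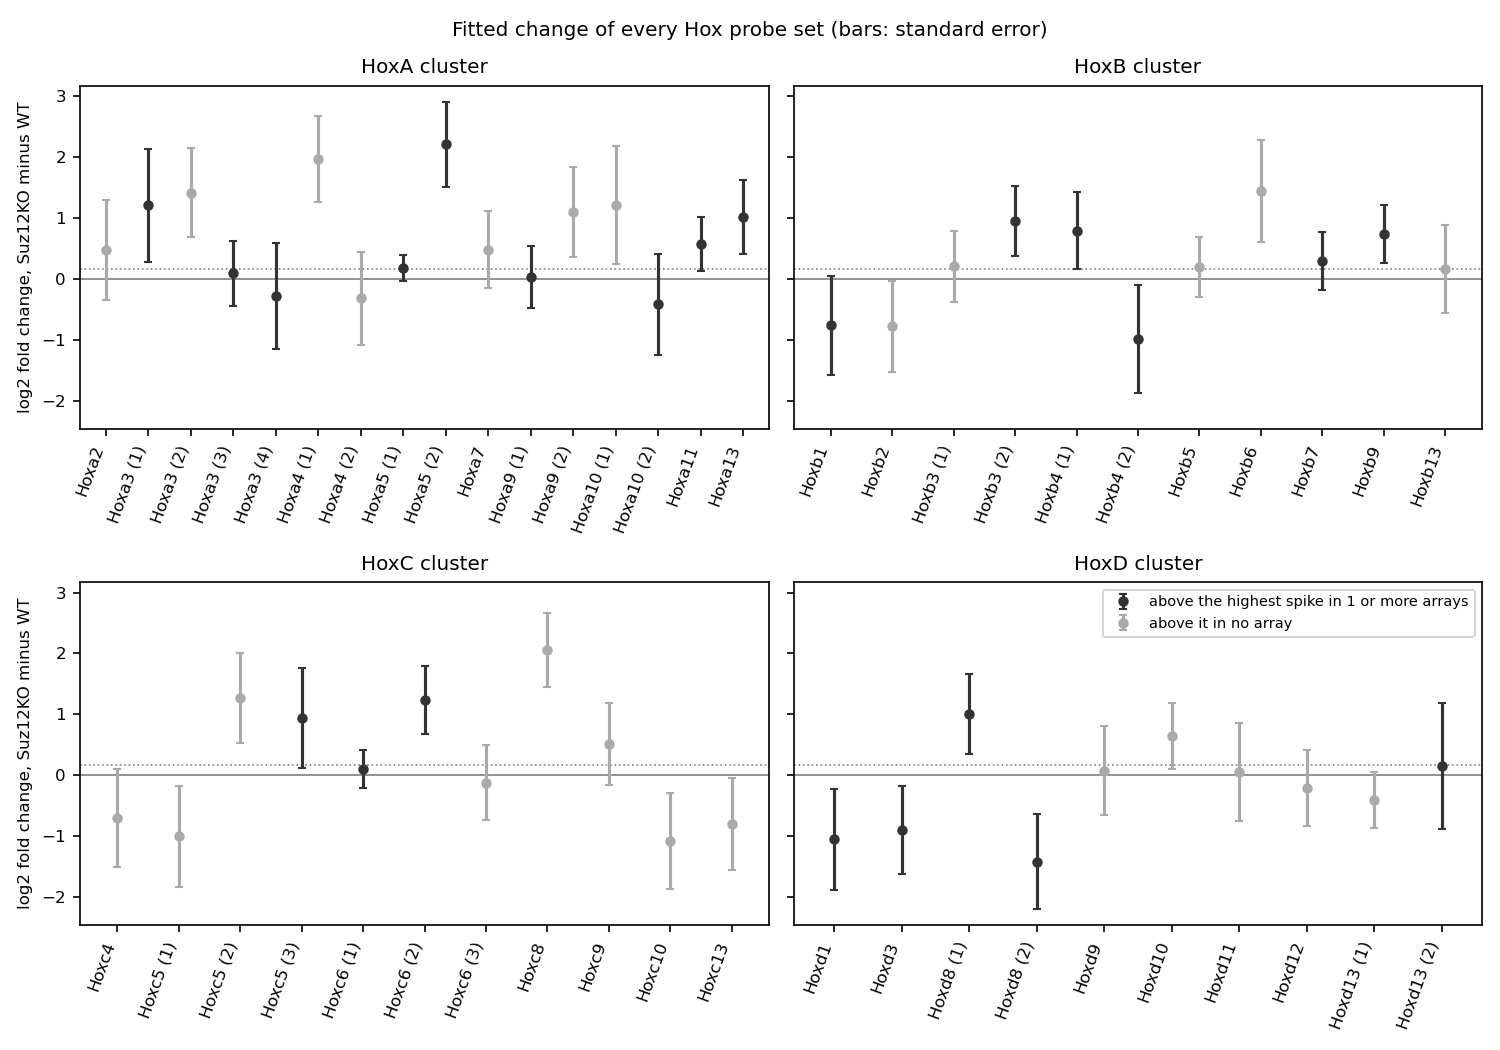
Log2 fold change (Suz12KO minus WT) of each Hox probe set on the log2(signal + 16) scale, by cluster and paralog number, with its standard error from limma as a bar. Black points passed the highest spike in at least 1 array and grey points in none, and the dotted line is the median of the dim probe sets (0.16). HoxA points lie mostly above the line and HoxD points on both sides.

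Over all 48 probe sets the median log2 fold change was 0.19, beside 0.07 for all probe sets, 0.16 for the dim ones and 0.24 for the bacterial spikes. The Hox median was thus no larger than that of probe sets for transcripts that mouse cells do not have. By cluster the medians were 0.53 in HoxA, 0.21 in HoxB, 0.11 in HoxC and -0.08 in HoxD. The order of HoxA and HoxB turned without WT replicate 1 (0.17 and 0.56) and with the brightest probe set per gene (0.14 and 0.51). With each array centred on its median the HoxC median was -0.060, and without probe sets that carry an s, x or a suffix the HoxD median was 0.049. By position, the median was 0.09 for paralog groups 1 to 3 (11 probe sets), 0.39 for groups 4 to 8 (20 probe sets) and 0.15 for groups 9 to 13 (17 probe sets). These are descriptions of lists, and no difference between clusters or positions was tested. In all, 32 of 48 Hox probe sets (66.7%) had a log2 fold change above 0, 15 (31.2%) had both Suz12KO arrays above both WT arrays and 5 (10.4%) had both below. The shares over all probe sets were 55.4%, 25.7% and 18.7%. Among the 38 dim Hox probe sets 60.5% had a log2 fold change above 0, 26.3% had both Suz12KO arrays higher and 13.2% had both lower, near the 58.7%, 24.0% and 12.8% of all dim probe sets. After quantile normalization or centring, alternatives chosen after the data were seen, 12 Hox probe sets had both Suz12KO arrays higher and 6 had both lower. With 2 arrays against 2 an exact permutation test of a single probe set cannot give a two-sided p under 0.333.

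**Figure D3:**
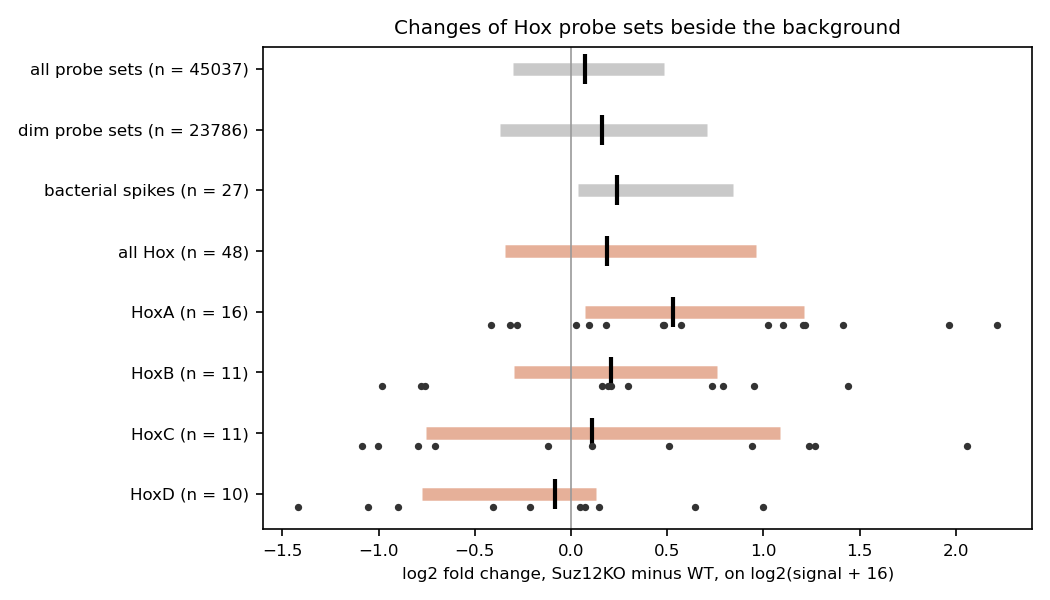
Median (tick) and interquartile range (bar) of the log2 fold changes of all 45037 probe sets, the 23786 dim ones, the 27 bacterial spikes, all 48 Hox probe sets and those of each cluster, with dots for single probe sets. The HoxA median (0.53) lies to the right of that of the spikes (0.24), and the ranges of all groups overlap.

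The arrays of a genotype often lay apart. The 2 WT arrays lay over 2-fold apart for 18 of 48 Hox probe sets (37.5%), against 27.0% of all probe sets. The 2 Suz12KO arrays did so for 23 (47.9%), against 28.8%. Among the dim Hox probe sets these shares were 39.5% and 55.3%, against 45.5% and 47.4% of all dim ones. Of the 33 genes, 11 have over 1 probe set, and in 8 of these the probe sets of the gene had log2 fold changes of opposite sign. Only in Hoxa5, Hoxa9 and Hoxb3 did they share a sign, and there they differed in size. For Hoxa9 that holds on the deposited scale but not with centring or quantile normalization. The reverse pattern, above the highest spike in both WT arrays and in no Suz12KO array, was found for 0 of 48 Hox probe sets, against 1.47% of all and 1.93% of dim ones. It was 4 without WT replicate 2, 2 without Suz12KO replicate 2 and 2 with the second highest spike as the level.

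**Figure D4:**
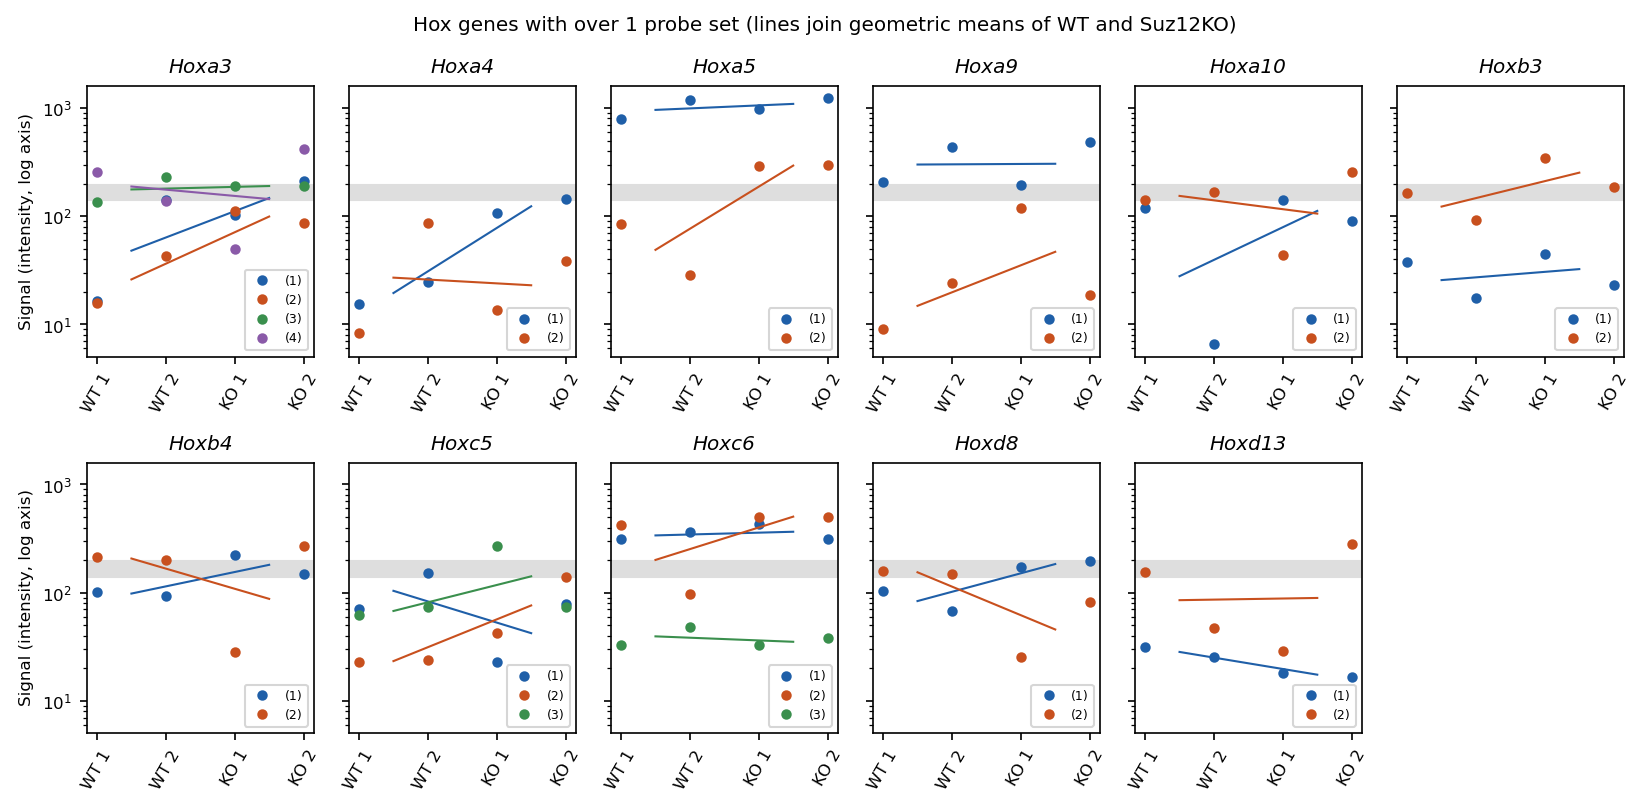
Signal (intensity, log axis) in WT replicates 1 and 2 and Suz12KO (KO) replicates 1 and 2 for the 11 Hox genes with over 1 probe set, 1 colour per probe set in order of identifiers, with lines joining the geometric means of the genotypes and a grey band for the highest spikes (141 to 195). Lines cross or diverge in Hoxa4, Hoxa10, Hoxb4, Hoxc5 and Hoxd8 among others, and the Hoxa5 probe sets differ in slope.

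The proteins that bind DNA together with Hox factors, the TALE homeodomain cofactors, were measured by 20 probe sets for 8 of 9 listed genes. Of these probe sets 1 rose and 0 fell, against 1.25% and 1.79% of all probe sets, with a median log2 fold change of 0.10. Meis2 on 1417129_a_at read 207 and 245 in WT against 700 and 563 in Suz12KO, all above the spikes and without overlap, a log2 fold change of 1.42 (SE 0.29, limma adjusted p = 0.0368). The call was lost whichever of the 4 arrays was left out (adjusted p between 0.0744 and 0.223, log2 fold change 1.26 to 1.57) and with each array centred on its median (1.25, adjusted p = 0.0564). The Meis2 probe set 1457632_s_at read 351 and 358 against 389 and 474, so the size of the rise differed between probe sets, and the mean over all of them did not pass (0.86, adjusted p = 0.365).

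Regulators of the clusters, such as the Cdx factors, the retinoic acid enzymes and receptors and the methyltransferase Kmt2a, were measured by 17 probe sets for 12 of 13 listed genes. By limma 0 rose and 0 fell at an adjusted p under 0.05, against 1.25% and 1.79% of all probe sets, and the median was -0.06. The brightest of them, the retinoic acid receptor Rarg on 1419415_a_at, read 1764 and 1680 in WT against 2010 and 1955 in Suz12KO (log2 fold change 0.20, SE 0.10, adjusted p = 0.434). Unadjusted limma p-values lay under 0.05 for 5 of the 17, those of Men1, Rarg, Cyp26a1, Aldh1a2 and Gdf11, which are named after their values were seen. The share over all probe sets was 14.2%. Of the 5, those of Rarg, Cyp26a1 and Gdf11 read higher in both Suz12KO arrays, and those of Men1 and Aldh1a2 read lower. Aldh1a2, which makes retinoic acid, read 432 and 374 in WT against 56.1 and 143 in Suz12KO. Its Suz12KO readings lay within the range of the spikes, so it was at least 2.19-fold lower (adjusted p = 0.128). In the other lists, Pbx2 on 1449261_at also passed the highest spike in both WT arrays only. Meis1 on 1450992_a_at (at least 1.40-fold higher) and Skap1 on 1437249_at, beside HoxB (at least 1.49-fold higher), did so in both Suz12KO arrays only. None of these passed the test.

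Genes that flank the clusters gave 2 rises and 0 falls among 40 probe sets for 19 genes, both rises beyond the Hoxb13 end of HoxB. Over all probe sets 1.25% rose and 1.79% fell. Of the 40, 29 were above the highest spike in both arrays of a genotype, so they were brighter than most Hox probe sets. Calcoco2, an autophagy receptor gene that is number 2 of the protein-coding genes beyond Hoxb13, read 358 and 151 in WT against 3554 and 3559 in Suz12KO. WT replicate 2 did not exceed the highest spike of its array. Both Suz12KO arrays were far higher, with a log2 fold change of 3.84 (SE 0.32, limma adjusted p = 0.000498), or 3.26 when WT replicate 2 was left out and 4.42 when replicate 1 was. Atp5g1, number 3 in that row and a subunit of the mitochondrial ATP synthase, read 4438 and 4060 in WT against 6501 and 5951 in Suz12KO, a log2 fold change of 0.55 (SE 0.08, adjusted p = 0.0105). The Atp5g1 call was lost when WT replicate 2 was left out (adjusted p = 0.0554), when Suz12KO replicate 1 was (adjusted p = 0.0843) and with centring on array medians (0.38, adjusted p = 0.0615), and averaging both Atp5g1 probe sets gave 0.11. Leaving out 1 array at a time gave log2 fold changes of 0.49 to 0.61. Ttll6, which lies between Calcoco2 and Hoxb13, had a log2 fold change of -0.05 (SE 0.40), and Hoxb13 itself stayed under the spikes. Beside HoxA 0 of 12 probe sets passed, beside HoxC 0 of 12 and beside HoxD 0 of 5. The brightest there were Tax1bp1 (log2 fold change 0.27, SE 0.15), Hnrnpa1 (0.17, SE 0.09) and Mtx2 (-0.18, SE 0.11), none with a limma adjusted p under 0.05.

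The other transcripts of the clusters with a symbol of their own, Hoxa11os, Hoxb5os and Hoxd3os1, had 5 probe sets, of which 0 passed the test and 0 were above the highest spike in all arrays. The brightest, Hoxd3os1 on 1430263_at, read 132 and 194 in WT against 224 and 112 in Suz12KO, with overlap. Hoxa11os, antisense to Hoxa11, read 102 and 69.0 in WT against 154 and 147 in Suz12KO on 1452400_a_at. Both Suz12KO arrays were higher there, within the range of the spikes. On its other probe set Hoxa11os read 10.9 and 31.1 against 17.5 and 83.6, with overlap.

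**Figure D5:**
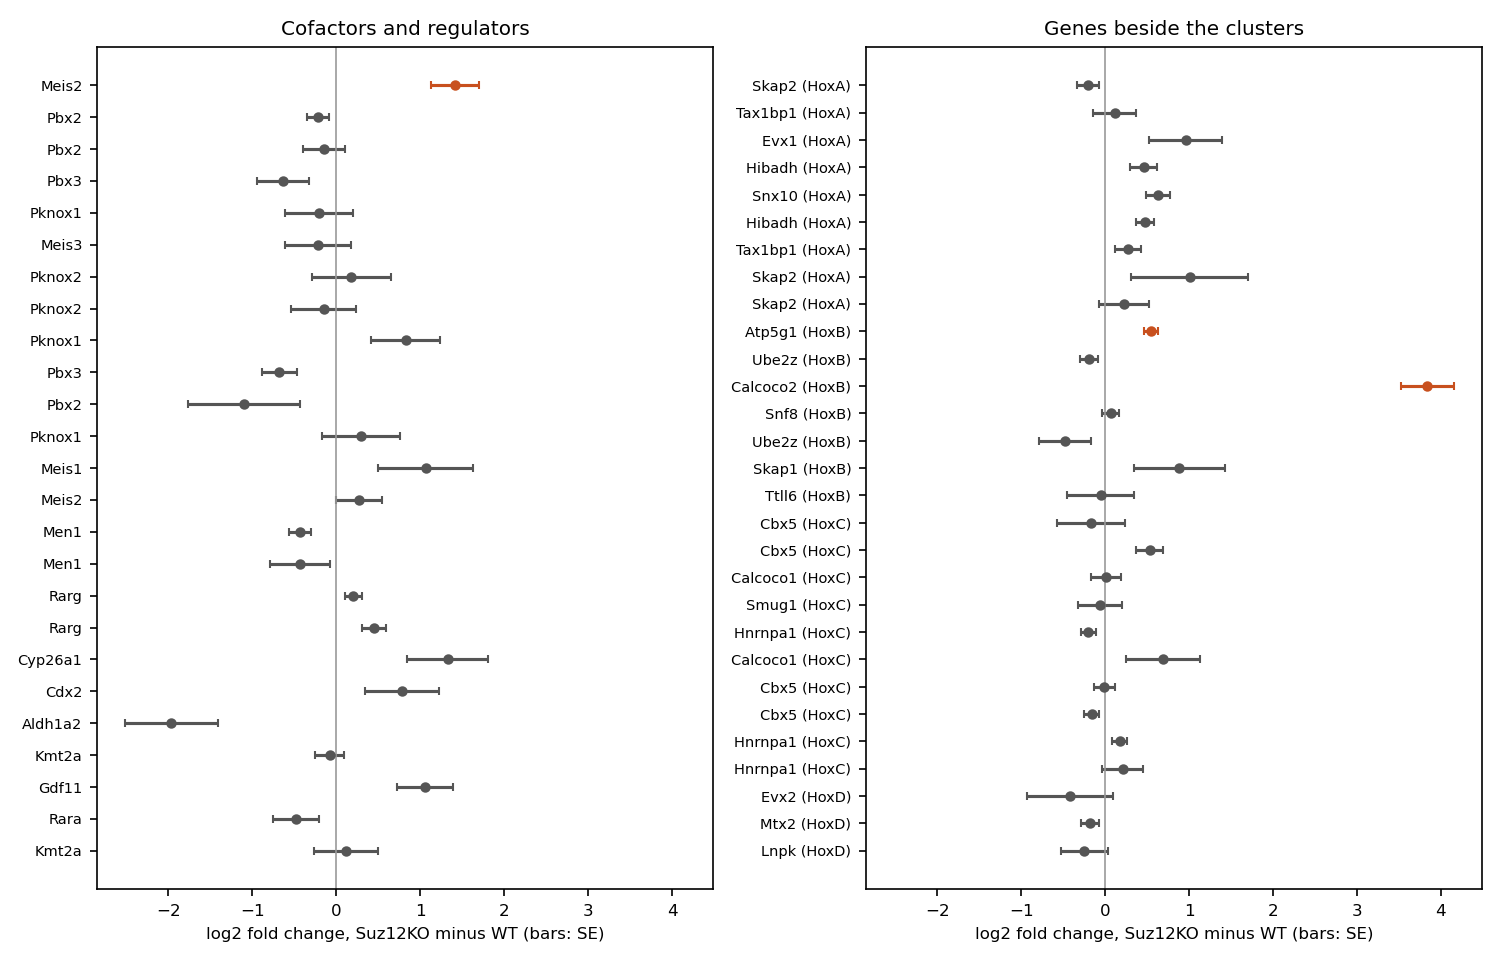
Log2 fold change (Suz12KO minus WT) with its standard error for 25 probe sets of cofactors and regulators and 29 of genes beside the clusters that were above the highest spike in both arrays of a genotype, 1 row per probe set and orange where the adjusted p is under 0.05. Calcoco2 (3.84) stands far to the right, and Meis2 and Atp5g1 are the other orange points.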

How the data were processed

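Probe set intensity was deposited by the authors as a series table, on a linear scale. After trimming 2% of values at either end, each array had a mean of 500.003, so the arrays had been scaled to a common mean, by software not named in the labels. The number of arrays limits the precision. In the platform annotation 34945 probe sets carried 1 symbol, 932 carried several and 9160 carried none. The 64 controls were left out of the fit, which left 45037. Values were taken as log2(signal + 16), which understates the change of dim genes, and Suz12KO was compared with WT in limma 3.58.1 (R 4.3.3) with lmFit and trended eBayes. Tests were two-sided, with p-values adjusted by Benjamini-Hochberg across the 45037 probe sets. A fold given as "at least" compares means of log2 signal, with each reading of the dimmer genotype raised to the highest spike of its array. Members and lists were chosen with earlier results of these data known. Text gives all 4 values and the test for probe sets above the highest spike in both arrays of a genotype, and the test also for those of Hoxa4 and Hoxc8 with an unadjusted p under 0.05, named after their values were seen. Signals alone are given for the others. Of the other lists, those past the test or, where none passed, the brightest member are named, and the other genes named from them were chosen after their values were seen. Fit and threshold were tested on simulated data, where 5 of 30 calls were false. Alternatives were pseudocounts of 1 and 64, quantile normalization, centring, a filter at the 30th percentile, other choices of probe set, eBayes settings, the replicate number as a block, other spike levels and leaving out each array. Figures used matplotlib 3.10.9 and Python 3.11.15.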

Additional observations from a re-analysis of the deposited data

How the results depend on the processing

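By limma 0 Hox probe sets rose and 0 fell under each alternative fitted. The lowest adjusted p of a Hox probe set ran from 0.0508 (without WT replicate 1) to 0.419 (without WT replicate 2), and 1 to 5 of those tested had an unadjusted p under 0.05, except 0 of 11 with the brightest probe set per gene. The filter, the choice of probe sets, the eBayes settings and the block leave the fold change of a single probe set as it was, so only the pseudocount, scaling, averaging and left-out arrays could turn it. Hoxa9 was -0.073 after quantile normalization and -0.14 after centring, and Hoxc6 on 1427361_at was -0.060 after centring. Centring moved the median of all probe sets from 0.07 to -0.10, that of all Hox probe sets to 0.020 and that of HoxC to -0.060, and it changed the calls over all probe sets from 565 higher and 807 lower to 252 and 1226. The HoxC median was 0.73 over the 4 probe sets left by the filter and -0.0066 without suffixed probe sets, where that of HoxD was 0.049. The HoxA median was 0.14 over 6 genes with the brightest probe set, and averaging probe sets gave 0.40 for all Hox genes. Leaving out 1 array in turn gave medians of 0.15 to 0.36 for all Hox probe sets, 0.17 to 0.70 for HoxA, 0.02 to 0.56 for HoxB, -0.045 to 0.33 for HoxC and -0.49 to 0.0061 for HoxD. For single probe sets it gave -0.10 to 0.46 for Hoxa5 on 1443803_x_at, -0.60 to 0.65 for Hoxa9, -2.33 to 0.37 for Hoxb4 on 1460379_at and -0.11 to 0.33 for Hoxc6 on 1427361_at. Among cofactors, regulators and neighbours, 3 rose. That count was 1 after centring, without suffixed probe sets or with probe sets averaged, 0 without the eBayes trend, which gave 0 calls over all probe sets (4822 at an unadjusted p under 0.05), 5 with the filter, and 1 to 2 with 1 array left out. With the brightest probe set 1 fell. Hox probe sets above the highest spike in both Suz12KO arrays and no WT array numbered 3 with the highest spike of any array as the level and 1 to 6 with 1 array left out. The reverse numbered 2 with the second highest spike and 0 to 4 with 1 array left out. With the replicate number as a block, 5 of the listed probe sets and 0 Hox probe sets rose (lowest Hox adjusted p = 0.0750), and 977 rose and 1241 fell over all. The deviations of WT replicate 1 and Suz12KO replicate 1 correlated at 0.0038. This single value cannot tell whether same-numbered arrays shared more than a number. The cause of each move was not tested.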

Other observations

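Another 3 probe sets carry the symbols of more than 1 Hox gene and were left out of the counts. The one for Hoxd4 and Hoxd3 on 1421537_at read 165 and 40.9 in WT against 118 and 214 in Suz12KO, and the other, on 1450209_at, read 22.1 and 13.9 against 14.2 and 27.9. The one for Hoxb8 and Hoxb7 read 30.6 and 146 against 174 and 72.3. In each of these the genotypes overlapped.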
